A study of Mus musculus with 17 samples.

Results

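The SLAM family is a group of 9 immune cell surface receptors, and on this mouse microarray it was measured by 14 probes, which were all probes whose gene name in the scanner files was Slamf1, Cd48, Cd244, Ly9, Cd84, Slamf6, Slamf7, Slamf8 or Slamf9, out of 55681 probes. Of these, 13 probes passed the filter on dim signal in each of the 2 fits below, and every probe is accounted for. On 17 one-colour arrays, RNA of sorted mouse bone marrow stem cells (haematopoietic stem cells, HSCs) was measured. The first set, the CD41 sort, took wild-type Lin- Sca1+ cKit+ (LSK) cells that were also Flt3- and compared those without CD41 (3 arrays) and those with it (3 arrays). The labels give no age for these mice. The second set held long-term HSCs (LT-HSCs), sorted as LSK cells that lack CD48 and carry CD150, from mice of 2 months (3 wild-type and 2 CD41-KO arrays) and of 12 months (3 wild-type and 3 CD41-KO arrays). Itga2b is the gene of CD41, an integrin chain of platelets and early HSCs. The labels do not describe the knockout allele or the strain. Each array held amplified RNA of 1000 cells from a pool of 4 to 5 mice, and the labels do not say whether replicates are different pools. The p-values thus speak of the spread among these arrays, possibly a technical one.

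SLAM receptors are immunoglobulin-type proteins that mostly bind a receptor of the same kind on a neighbouring cell. CD48 is the exception: it is held in the membrane by a lipid anchor and binds CD244. Most members carry tyrosine motifs in the tail, called switch motifs, that recruit the small adaptors SAP (Sh2d1a) and EAT-2 (Sh2d1b1, Sh2d1b2), which bring in Src-type kinases, or phosphatases where the adaptors are missing. CD150 (Slamf1), CD48 and CD244 are the markers by which mouse HSCs are told from multipotent progenitors: HSCs carry CD150 and lack CD48 and CD244. The genes of both LT-HSC gate markers were therefore among the members, and the gate fixes protein on the surface, not the RNA measured here.

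All 14 probes lie on mouse build mm9 chromosome 1. Those of Slamf1, Cd48, Cd244, Ly9, Cd84, Slamf6 and Slamf7 cover 358.2 kb, and with Slamf8 and Slamf9 the span is 996.7 kb. Cd48, Ly9, Cd84, Slamf6 and Slamf8 have a pair of probes each, called upstream and downstream by their order along the gene's strand, with centres 5.48, 4.82, 2.44, 1.85 and 0.35 kb apart. Whether a probe lies in a coding exon, an intron or a UTR was not analysed here. The Slamf1 probe is at chr1:173730343-173730402 on the plus strand, the Cd48 probes at chr1:173629721-173629780 and chr1:173635201-173635260 on the plus strand, and the Cd84 probes at chr1:173816502-173818732, where the 60 bases of the upstream probe are spread over 2231 bases of genome, and chr1:173820027-173820086. The Ly9 probes are at chr1:173523555-173523614 and chr1:173518744-173518790 on the minus strand and the Slamf6 probes at chr1:173871767-173871826 and chr1:173873620-173873679 on the plus strand. Those of Slamf8 are at chr1:174512067-174512126 and chr1:174511717-174511776 on the minus strand. The position given for the Ly9 downstream probe covers 47 bases of genome, fewer than the 60 bases of the probe.

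The results turn on the probes of the gate genes Slamf1 and Cd48 and on the Ly9, Cd84, Slamf6 and Slamf8 probes, and the stretches below, of 30 bases each, show what was measured. They are read 5′ to 3′ from the deposited scanner files. Capitals in Ly9 and Slamf6 mark letters that can be read as the codons of the switch motif: threonine, then isoleucine or methionine, then tyrosine, any pair of residues and valine. Capitals in Cd244 mark 16 bases that also occur in probes of other genes.
Slamf1: ttttagagcctcttatgcttcaaacaacag
Cd48 upstream probe: gtcagcaatcctgtaagcagcaagaacgac
Cd48 downstream probe: cctgtgtgcccagtcctttacaaagatttc
Ly9 upstream probe: tcaaatACAATCTACTGCTCTGTGcagaag
Ly9 downstream probe: agtctcctgaaagcccctacctatgaaaat
Cd84 upstream probe: ccaacatgaaggacagaagtctgcctaagg
Cd84 downstream probe: ctaataggcagcaaagcataagcaggtctc
Slamf6 upstream probe: tccatgACAATTTACTCCATAGTTaatcat
Slamf6 downstream probe: ctgtttgacctctgtgaccttttagctcct
Slamf8 downstream probe: tccacaacttcaagagaaacagctaagttc
Cd244: tgCACAGAGAAACCCTGTctcaatccctaa
The pattern, searched on the strand the probe is given in, occurred in 2 of the 14 probes and in 36 of the 55681 probes of the array. The Ly9 and Slamf6 upstream probes thus hold letters that can be read as such a motif. The reading frame was not checked, and a match of letters does not show how the protein is made. The marked run of the Cd244 probe was present in 9 other probes (either strand), and 11 probes of other genes shared a run of at least 16 bases with it, the longest of 21 bases. The Slamf8 upstream probe shared a run of 16 bases with 1 probe, and the other 12 member probes shared none. The signal of the Cd244 probe may thus hold signal of other transcripts, which was not tested.

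Levels below are log2 of the background-corrected signal divided by the array's 75th percentile, so a level of 0 equals that percentile. Differences are on the same scale, ± SE from limma, with p-values adjusted over all probes of a fit (53883 for the sort by CD41, 50417 for the LT-HSCs) and called at an adjusted p under 0.05. Levels of different probes are not set against each other. The share of spots well above background was up to 98.5% on an array of the CD41 sort and 82.7% to 93.3% on LT-HSC arrays. Itga2b checked the labels: it was higher in CD41-positive cells by 0.86 ± 0.08 (adjusted p = 0.000107) and lower in CD41-KO cells by -2.71 ± 0.30 at 2 months (adjusted p = 0.000553) and -1.48 ± 0.27 at 12 months (adjusted p = 0.0153), with a signal still well above background on all 5 knockout arrays. Whether its probe lies in the deleted part is not known. The wild-type arrays at 2 months carried Y-linked RNA (Ddx3y at -1.37 ± 0.23, and not well above background on any other array) and a low Xist level (-2.28 ± 0.16, SD, n = 3), while the 2-month CD41-KO arrays stood at 5.27 ± 0.29 (SD, n = 2), and both 12-month groups had means of 4.88 and 4.56. Genotype at 2 months, age in wild type and the interaction of age and genotype therefore each move with a difference in sex-linked genes and cannot be told apart from it. All 3 use the wild-type arrays at 2 months. Smaller differences in sex-linked genes were called elsewhere: Xist was lower in CD41-positive cells (-0.75 ± 0.10, adjusted p = 0.000444) and with age in CD41-KO (-0.72 ± 0.22, adjusted p = 0.0321), where Eif2s3y was higher (0.60 ± 0.14, adjusted p = 0.00907).

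**Figure D1:**
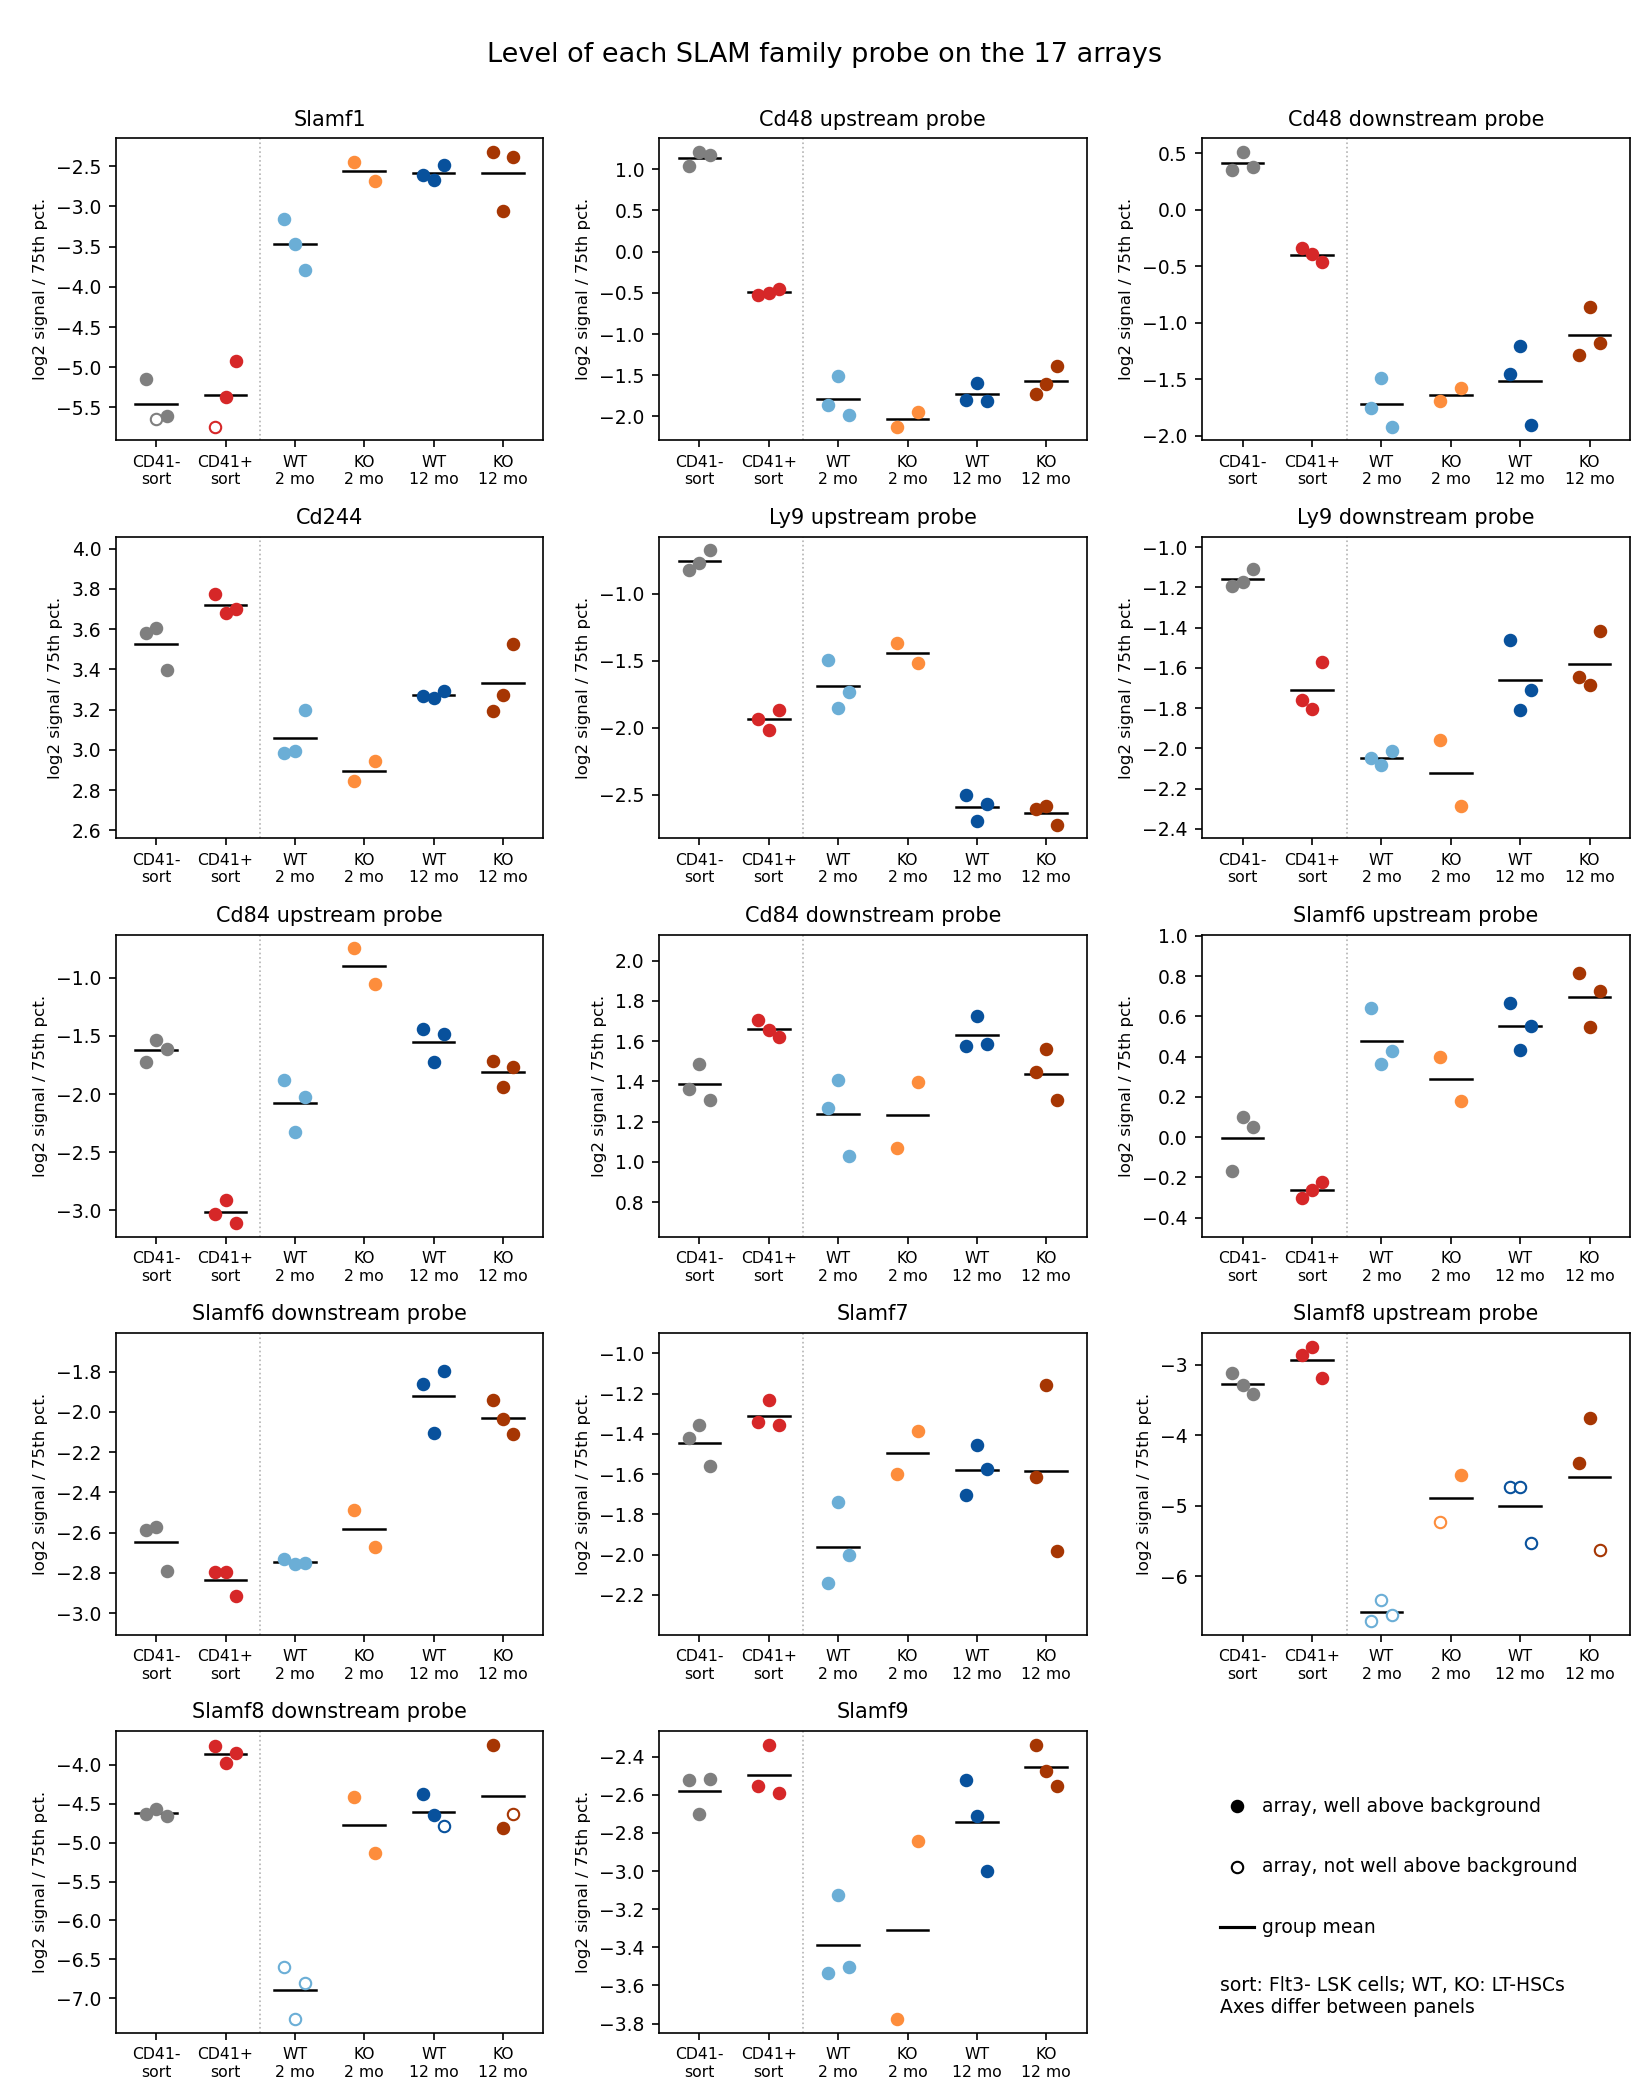
Level of each of the 14 probes on every array, as log2 signal over the array's 75th percentile (vertical axis, which differs between panels), by group. Filled points are arrays well above background, open points are not, and bars are group means. Cd48 stood lowest in the LT-HSC groups and Slamf1 lowest in the CD41 sort, where its level did not exceed -4.93.

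In the CD41 sort, Cd48, Ly9 and the upstream probe of Cd84 fell in CD41-positive cells and the downstream probe of Slamf8 rose. Of 13 probes tested, 8 passed, 2 higher and 6 lower, where 59.1% of all probes passed, 37.6% higher and 21.5% lower, and with a change of at least 2-fold 0 were higher and 3 lower, against 6.65% of all probes, 2.05% higher and 4.6% lower. The median over the 13 probes was -0.19 and that over all probes 0.16. At 2 months, 3 of 13 probes were higher in CD41-KO than in wild-type LT-HSCs and 0 lower, where 12.3% of all probes passed, 7.78% higher and 4.49% lower. Past 2-fold was 1 (Cd84 upstream, higher), leaving out Slamf8 downstream, for which the dim wild-type signal gives no fold, against 4.54% of all probes, 2.78% higher and 1.76% lower. The 3 were Slamf1 and the Cd84 upstream and Slamf8 downstream probes, and Slamf8 downstream entered the test only through the 2-month CD41-KO group. With only probes well above background on all arrays, 2 members passed, where 5330 of all 43899 such probes did, 1277 of them with at least 2-fold. At 12 months 0 of 13 probes passed limma's test and 0 had an unadjusted p under 0.05, where 5.62% of all probes passed, 2.82% higher and 2.8% lower, and 1.48% passed with at least 2-fold, 0.716% higher and 0.768% lower. With the replicate number, which here is also the slide, as a block, 2 of them passed (Cd48 downstream and Cd84 upstream). Of all 50417 probes 14572 passed with the block. With age, 5 of 13 probes passed in wild type, 4 higher and 1 lower, where 15.5% of all probes passed (9.37% higher and 6.13% lower), and 6 of 13 in CD41-KO, 4 higher and 2 lower, where 34.6% passed (15.9% higher and 18.7% lower). Past 2-fold were 0 in wild type, again leaving out Slamf8 downstream, against 4.37% of all probes, 3.06% higher and 1.31% lower, and 1 in CD41-KO (Ly9 upstream, lower), against 10% of all probes, 4.21% higher and 5.83% lower. Of the 43899 probes well above background on all arrays, 1110 passed with at least 2-fold for age in wild type. With the block 9 of 13 members passed at any size in wild type and 10 of 13 in CD41-KO, where 21035 and 30301 of all 50417 probes passed. The median over the members was 0.39 and 0.41 for age in wild type and CD41-KO, and over all probes 0.09 and 0.14. The genotype effect differed between ages for 2 of 13 probes, both negative, where 10.3% of all probes passed, 4.08% positive and 6.18% negative. With the block it differed for 4, where 18047 of all 50417 probes passed. Slamf8 downstream was again 1 of the 2. With only probes well above background on all arrays, 1 member passed, where 4593 of all 43899 such probes did, 2264 of them with at least 2-fold. Cd84 upstream was past 2-fold, leaving out Slamf8 downstream, for which the dim wild-type signal gives no fold. Of all probes 6.16% were past 2-fold, 2.54% positive and 3.62% negative. A share of called members near that of all probes, as in the CD41 sort, is no result about the family.

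**Figure D2:**
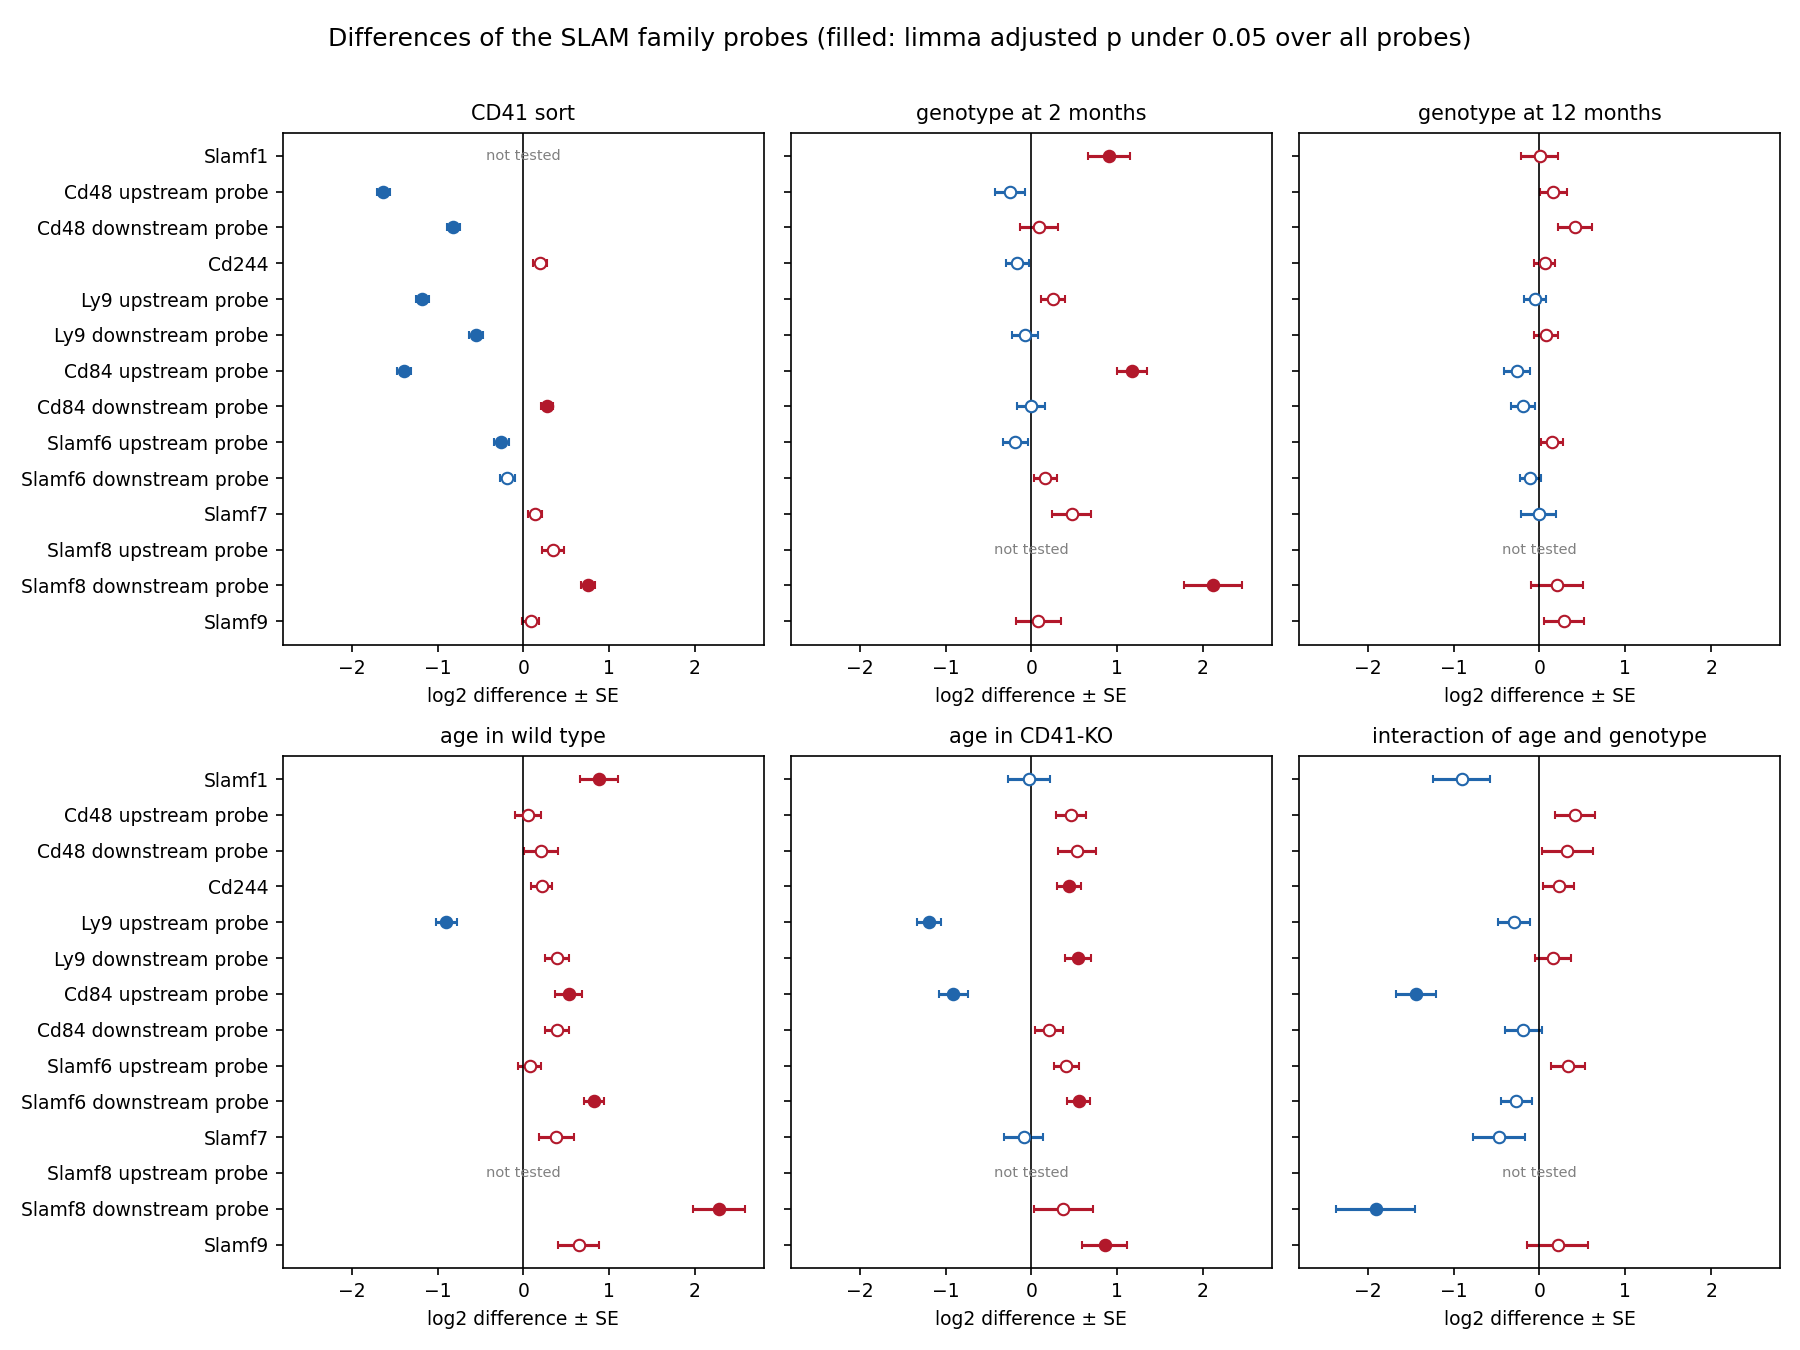
Log2 difference ± SE of each probe (rows) in the 6 comparisons (panels), where filled points had a limma adjusted p under 0.05 over all probes of the fit. Called points lie mostly to the left in the CD41 sort, and 0 are called for genotype at 12 months.

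Cd48, which encodes the ligand of CD244 and whose protein marks progenitors, had the largest fall of the family in the CD41 sort. Its upstream probe stood at 1.04, 1.21 and 1.18 on the CD41-negative arrays and at -0.52, -0.50 and -0.45 on the CD41-positive ones. The groups lay far apart, and the difference was -1.63 ± 0.07 (adjusted p = 1.09e-05). The downstream probe stood at 0.35, 0.51 and 0.38 against -0.34, -0.39 and -0.46, without overlap, and fell by 0.81 ± 0.08 (adjusted p = 0.000102). Both probes thus fell, the upstream one more, and the difference between probes was not tested. Markers of multipotent progenitors moved the same way: 10 of 12 fell and 1 rose, where 21.5% of all probes fell and 37.6% rose. Among those that fell were Satb1 at -2.25 ± 0.10, Il7r at -1.60 ± 0.07 and Cd48 itself, 1 of the 12. All 12 were well above background on all 6 arrays. Their summed signal was 51.7 to 61.6 times the 75th percentile on CD41-negative and at most 18.4 times on CD41-positive arrays, and their part in the Cd48 result was not tested. The 6 arrays shared 1 slide, 1 row of it per group, and a row effect cannot be told apart from CD41. In bulk samples fewer cells of a type and less RNA per cell cannot be told apart either.

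In LT-HSCs, sorted to lack CD48 protein, the Cd48 RNA signal was well above background on all 11 arrays with both probes. The upstream probe lay between -2.12 and -1.38 over these arrays and the downstream probe between -1.92 and -0.86, below every array of the CD41 sort. Gate and slide differ together between the 2 sets, so this is a description. Within the LT-HSC set the upstream probe had group means of -1.78 ± 0.24 in wild type and -2.04 ± 0.13 in CD41-KO at 2 months, and -1.73 ± 0.12 and -1.57 ± 0.17 at 12 months (SD, n = 3, 2, 3 and 3). For genotype both ages overlapped and no difference passed. With age in CD41-KO it was higher by 0.46 ± 0.17 and the downstream probe by 0.53 ± 0.22, groups apart in both, but the adjusted p was 0.0622 and 0.0924. With the block both passed (adjusted p = 0.0205 and 0.00371), and over all alternatives with every array the call was made in 3 of 10 and 1 of 11. At 12 months the downstream probe stood at -1.28, -0.86 and -1.18 in CD41-KO and at -1.45, -1.20 and -1.90 in wild type. The groups overlapped, but on each of the 3 slides the CD41-KO array was the higher one, by 0.17, 0.34 and 0.72. The difference of 0.41 ± 0.20 passed in 1 of 11 alternatives with every array, the block (adjusted p = 0.0276, and 0.273 without it).

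Slamf1 encodes CD150, the protein that marks the LT-HSC gate. In the LT-HSC set its probe was well above background on all 11 arrays. It stood at -3.15, -3.47 and -3.79 on the 2-month wild-type arrays, at -2.44 and -2.68 on the 2-month CD41-KO arrays, at -2.61, -2.67 and -2.48 on the 12-month wild-type arrays and at -2.32, -3.05 and -2.38 on the 12-month CD41-KO arrays. The 2-month wild-type arrays were all lower than those of the other LT-HSC groups, which overlapped each other. In 2-month CD41-KO cells it was higher by 0.91 ± 0.25 (adjusted p = 0.0404), by 0.71 on slide 2 and 0.79 on slide 3, and with age in wild type by 0.88 ± 0.22 (adjusted p = 0.0247), by 0.54, 0.80 and 1.31 on slides 2, 3 and 4. Both comparisons share the 2-month wild-type arrays, in which sex-linked genes differ too. With age in CD41-KO the difference was -0.02 ± 0.25 and for genotype at 12 months 0.00 ± 0.22, and the genotype effects of both ages differed by -0.91 ± 0.33 (adjusted p = 0.113, and 0.0434 with the block). The 2-month call was lost with normexp background correction (0.39, adjusted p = 0.276), with the authors' deposited table (0.49, adjusted p = 0.0849) and without CD41-KO replicate 1, where the adjusted p was 0.259. The age call was lost with normexp (0.50, adjusted p = 0.113) and with the deposited table (0.44, adjusted p = 0.0769). Over 11 alternatives with all arrays, 6 and 8 kept the call, and over 11 fits that left out 1 array, 3 and 6 did.

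In the CD41 sort, where cells were not gated on CD150, the Slamf1 probe was dim. It stood at -5.14, -5.65 and -5.60 in CD41-negative and at -5.74, -5.37 and -4.93 in CD41-positive cells, and was well above background on 2 of 3 arrays of each group. It was not among the tested probes, and the groups overlapped. Without a filter on dim probes the difference was 0.12 ± 0.22 (limma adjusted p = 0.671). Every LT-HSC array stood above every CD41 sort array, again with gate and slide different. Of 26338 probes with a gene symbol that were well above background on all 11 LT-HSC arrays, those of Tnk2 (Pearson r = 0.98), Arf2 (0.96) and Plcb1 (0.96) followed Slamf1 most closely. For the Cd48 downstream probe they were Tmem89 (0.96), Krtap4-1 (0.96) and 4930525G20Rik (0.96). The 11 arrays share slides and groups, and these ranks are descriptions.

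For the regulatory sequence of both gate genes, the 250 bases before the start of transcription are given as RefSeq places it on build GRCm38.p6, which is not the build of the probe positions. The promoter table held 8 of the 9 members, with Cd244 under the name Cd244a. Capitals mark TGTGGT, the core bound by RUNX factors, in Cd48. In Slamf1 they mark TGATAA, one form of the core bound by GATA factors, whose other form searched was AGATAA. Both strands were searched.
Cd48 (chr1:171681742-171681991, plus strand): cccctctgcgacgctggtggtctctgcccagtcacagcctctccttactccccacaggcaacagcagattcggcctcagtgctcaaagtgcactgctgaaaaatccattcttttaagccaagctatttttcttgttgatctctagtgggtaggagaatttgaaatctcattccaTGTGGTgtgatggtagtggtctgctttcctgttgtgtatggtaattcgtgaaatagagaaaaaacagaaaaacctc
Slamf1 (chr1:171766882-171767131, plus strand): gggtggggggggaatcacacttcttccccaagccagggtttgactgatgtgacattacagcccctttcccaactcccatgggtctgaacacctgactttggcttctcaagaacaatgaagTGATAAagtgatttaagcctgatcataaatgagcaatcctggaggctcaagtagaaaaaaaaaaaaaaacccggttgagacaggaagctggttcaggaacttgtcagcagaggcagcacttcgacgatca
In windows that also hold the 50 bases after the start, the RUNX letters were in 2 of the 8 member promoters (Cd48 and Cd84) and in 16.8% of all 32851 promoters. The GATA letters were in 1 of 8 (Slamf1) and in 18.6% of all. CCGGAA, the ETS core, was in 1 of 8 (Cd48) and in 14.9% of all. A match is a description of the letters only, and these motifs do not overlap each other in the stretches shown.

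Cd244 encodes 2B4, the receptor of CD48 on natural killer cells and progenitors. Its probe, which shares runs with other genes' probes, was bright on all arrays. It stood at 3.58, 3.60 and 3.40 in CD41-negative and 3.77, 3.68 and 3.70 in CD41-positive cells, a difference of 0.19 ± 0.08 (adjusted p = 0.0745) with groups that did not overlap. In LT-HSCs the group means were 3.06 ± 0.12 and 2.89 ± 0.07 at 2 months and 3.27 ± 0.02 and 3.33 ± 0.18 at 12 months, in wild type and CD41-KO. It rose with age in CD41-KO by 0.44 ± 0.14 (adjusted p = 0.0336), by 0.34 and 0.33 on slides 2 and 3. This call was made in 8 of 11 alternatives with every array and in 6 of 11 fits that left out 1 array, with an adjusted p of up to 0.186 (without 2-month CD41-KO replicate 1). With age in wild type it was higher by 0.21 ± 0.12 (adjusted p = 0.290, and 0.0497 with the block).

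Ly9 (CD229), a receptor that binds itself and limits innate-like lymphocytes, moved by probe. The upstream probe, which holds the switch motif pattern, stood at -0.83, -0.77 and -0.68 in CD41-negative and at -1.93, -2.01 and -1.87 in CD41-positive cells. It fell by 1.18 ± 0.08 (adjusted p = 2.22e-05), 2.26-fold, with a wide gap between the groups. The downstream probe stood at -1.19, -1.17 and -1.11 against -1.76, -1.80 and -1.57 and fell by 0.55 ± 0.08 (adjusted p = 0.000991). In the CD41 sort both probes therefore agreed in direction. With age they did not. The upstream probe stood at -1.49, -1.85 and -1.73 in wild type at 2 months and at -2.50, -2.69 and -2.57 at 12 months, and at -1.37 and -1.52 against -2.61, -2.58 and -2.72 in CD41-KO. Every 12-month array lay below every 2-month array. It fell by 0.90 ± 0.13 in wild type (adjusted p = 0.00171) and by 1.19 ± 0.14 in CD41-KO (adjusted p = 0.000602), and both calls held in all 10 alternatives with all arrays and in all 11 that left out 1 array. The Ly9 downstream probe was higher with age, by 0.39 ± 0.14 in wild type (adjusted p = 0.0934, and 0.0190 with the block) and by 0.54 ± 0.16 in CD41-KO (adjusted p = 0.0237). The latter call was made in 7 of 11 alternatives and in 9 of 11 fits that left out 1 array, and was lost without 2-month CD41-KO replicate 2 (0.38, adjusted p = 0.165) or 12-month CD41-KO replicate 3 (0.46, adjusted p = 0.0771). Over the 11 LT-HSC arrays both Ly9 probes correlated at r = -0.84, a description. The Ly9 probes thus moved in opposite directions with age in LT-HSCs, though without the block the downstream rise was called only in CD41-KO. The downstream probe's given position covers fewer bases than the probe holds. No direction with age is given for the gene.

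**Figure D3:**
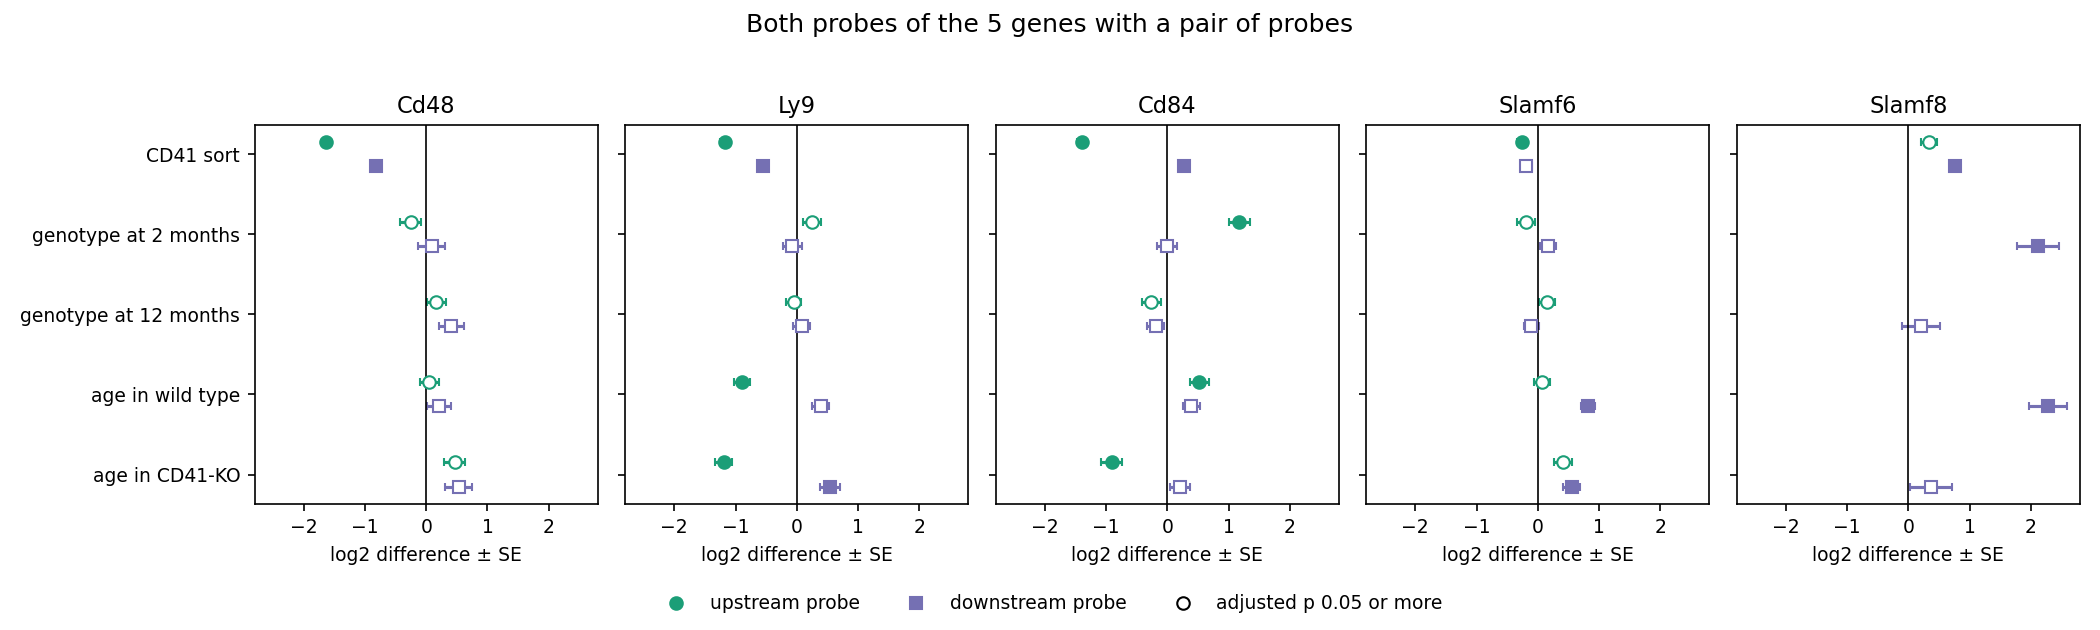
Log2 difference ± SE of the upstream (circles) and downstream (squares) probe of each gene with a pair of probes, in 5 comparisons (rows), where filled symbols had an adjusted p under 0.05. Both Cd48 and both Ly9 probes lie left of 0 in the CD41 sort, while the Ly9 probes with age and the Cd84 probes in the CD41 sort lie on opposite sides. The Slamf8 upstream probe was tested only in the CD41 sort.

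Cd84 encodes a self-binding receptor of platelets, B cells and mast cells. Its upstream probe stood at -1.73, -1.53 and -1.61 in CD41-negative and at -3.03, -2.91 and -3.11 in CD41-positive cells, apart by more than the spread, and fell by 1.39 ± 0.09 (adjusted p = 1.89e-05), 2.62-fold. The downstream probe, 2.44 kb away, stood at 1.36, 1.48 and 1.31 against 1.71, 1.66 and 1.62 and rose by 0.28 ± 0.08 (adjusted p = 0.0155). The rise of the downstream probe lost its call in 3 of 6 fits that left out 1 array, with an adjusted p of up to 0.0549. The probes of Cd84 thus gave opposite calls, and no direction is given for the gene. Markers of megakaryocytes and platelets moved too, with 8 of 14 higher and 0 lower in CD41-positive cells (37.6% and 21.5% of all probes) and a summed signal of 28.0 to 32.1 against 21.1 to 25.5 times the 75th percentile. Itga2b, the gene of the protein sorted on, is 1 of the 14 and among the 8 that rose. The part of these markers in the Cd84 result was not tested.

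In LT-HSCs the Cd84 upstream probe had the clearest pattern of age and genotype in the family. It stood at -1.88, -2.32 and -2.03 in wild type and at -0.75 and -1.05 in CD41-KO at 2 months, and at -1.44, -1.73 and -1.49 in wild type and -1.72, -1.94 and -1.77 in CD41-KO at 12 months. The 2-month CD41-KO arrays were higher than all other LT-HSC arrays. The genotype difference was 1.18 ± 0.17 at 2 months (adjusted p = 0.00271), by 1.13 and 1.27 on slides 2 and 3, and -0.26 ± 0.15 at 12 months (adjusted p = 0.389, and 0.0202 with the block), where the CD41-KO array was the lower one on each slide, by -0.28, -0.21 and -0.28. These effects differed by -1.44 ± 0.23 (adjusted p = 0.00679). With age the probe fell in CD41-KO by 0.91 ± 0.17 (adjusted p = 0.00377) and rose in wild type by 0.53 ± 0.15 (adjusted p = 0.0463). The fall in CD41-KO, a comparison that does not use the 2-month wild-type arrays, held in all 10 alternatives with all arrays and in all 11 that left out 1. The rise in wild type was called in 4 of 10 and 1 of 11. The Cd84 downstream probe was not called in the LT-HSC set. It had means of 1.24 and 1.23 at 2 months and 1.63 and 1.44 at 12 months, in wild type and CD41-KO, and was higher with age by 0.39 ± 0.14 and 0.21 ± 0.16 (adjusted p = 0.0965 and 0.346, and 0.00605 and 0.0309 with the block). With array weights the difference in wild type also passed (adjusted p = 0.0475).

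Slamf6 (Ly108), a self-binding receptor of T and NK cells, changed little in the CD41 sort. Its upstream probe, with the switch motif pattern, stood at -0.17, 0.10 and 0.05 against -0.30, -0.26 and -0.23 and fell by 0.26 ± 0.09 (adjusted p = 0.0364), a call kept in 1 of 6 fits that left out 1 array. The downstream probe was at -0.19 ± 0.09 (adjusted p = 0.0949). With age the downstream probe rose. It stood at -2.73, -2.75 and -2.75 in wild type at 2 months and at -1.86, -2.11 and -1.80 at 12 months, and at -2.49 and -2.67 against -1.94, -2.04 and -2.11 in CD41-KO. All 12-month arrays lay above all 2-month arrays. The rise was 0.82 ± 0.12 in wild type (adjusted p = 0.00201), called in all 10 alternatives with all arrays and all 11 that left out 1, and 0.55 ± 0.13 in CD41-KO (adjusted p = 0.0109), called in 7 of 10 and 10 of 11. The upstream probe was at 0.07 ± 0.13 for age in wild type (adjusted p = 0.778) and at 0.41 ± 0.15 in CD41-KO (adjusted p = 0.0561, and 0.00143 with the block). Its genotype effects differed between ages by 0.33 ± 0.20 (adjusted p = 0.324, and 0.0210 with the block).

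Slamf7 (CRACC), a self-binding receptor of NK and plasma cells, passed in no comparison, with or without the block, and in the CD41 sort in 1 of 10 alternatives. Its lowest LT-HSC level was in wild type at 2 months (-1.96 ± 0.20), and the other LT-HSC means were -1.49 ± 0.15, -1.58 ± 0.12 and -1.58 ± 0.42 in CD41-KO at 2 months, wild type at 12 months and CD41-KO at 12 months. Its largest difference, 0.47 ± 0.23 for genotype at 2 months, had an adjusted p of 0.224.

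Slamf8 and Slamf9 lie apart from the other members, and their proteins have short tails without the switch motif. Slamf8 (BLAME) is a receptor of macrophages and dendritic cells. In the CD41 sort its downstream probe stood at -4.63, -4.57 and -4.66 in CD41-negative and at -3.77, -3.98 and -3.85 in CD41-positive cells, without overlap, and rose by 0.76 ± 0.08 (adjusted p = 0.000175). The upstream probe was higher by 0.34 ± 0.13 with overlapping groups and missed the threshold (adjusted p = 0.0522). Of 11 markers of monocytes and macrophages 4 were higher and 0 lower in CD41-positive cells, a share of higher calls near the 37.6% of all probes, and their summed signal was 128.1 to 283.1 in CD41-negative and 159.9 to 327.6 times the 75th percentile in CD41-positive cells. All 11 were well above background on all 6 arrays, and their part in the Slamf8 result was not tested.

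In LT-HSCs both Slamf8 probes lay near the limit of detection. The downstream probe was not well above background on any of the 3 wild-type arrays at 2 months (measured levels -6.60, -7.26 and -6.80), and was so on 2 of 2 CD41-KO arrays at 2 months (-4.41 and -5.13), on 2 of 3 wild-type arrays at 12 months (-4.38, -4.65 and -4.78) and on 2 of 3 CD41-KO arrays at 12 months (-3.74, -4.82 and -4.64). The 2-month wild-type arrays lay below all others, which overlapped each other. The probe entered the test only through the 2-month CD41-KO group, the one with a clear signal on every array, so its calls in comparisons with that group are no independent support. The fit called the genotype difference at 2 months (adjusted p = 0.00430), that with age in wild type (adjusted p = 0.00132) and the difference between the genotype effects (adjusted p = 0.0300). No fold is given at 2 months, because the faintest probe still well above background on the wild-type arrays, at a mean of -4.61, was above the CD41-KO mean of -4.77. With age in wild type the same bound met a 12-month mean of -4.60, from 3 arrays of which 2 were well above background, so no fold is given either. With normexp correction, which adds an offset to dim signals, the log2 differences were 0.27, 0.49 and -0.26 and none passed (adjusted p = 0.559, 0.206 and 0.702). The upstream probe was well above background on 3 of the 11 LT-HSC arrays and was not tested.

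Slamf9, a receptor of antigen-presenting cells, stood at -2.34 to -2.70 in the CD41 sort with overlapping groups (0.08 ± 0.09, adjusted p = 0.462). In LT-HSCs it stood at -3.78 and -2.84 in CD41-KO at 2 months and at -2.34, -2.47 and -2.55 at 12 months, and rose by 0.85 ± 0.26 (adjusted p = 0.0303). The first CD41-KO replicate at 2 months was far lower than the second, and without it the difference was 0.39 (adjusted p = 0.314). The call was made in 7 of 11 fits that left out 1 array. In wild type the values were -3.53, -3.13 and -3.51 at 2 months and -2.53, -2.71 and -3.00 at 12 months. The groups did not overlap, and the difference of 0.64 ± 0.23 had an adjusted p of 0.0968, and of 0.0418 with the block.

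The signalling partners of the family were taken from a list of 20 adaptors, kinases and phosphatases, each gene by its brightest tested probe. In CD41-positive cells 2 of 20 rose and 7 fell, with a median of -0.06, where 37.6% of all probes rose and 21.5% fell with a median of 0.16. Among those that fell were Plcg1, a phospholipase (-0.88 ± 0.07), Csk, the kinase that restrains Src kinases (-0.81 ± 0.11), and the phosphatase gene Ptpn11 (-0.72 ± 0.08). In CD41-KO LT-HSCs 1 of 20 rose with age and 9 fell, with a median of -0.51. All probes had a median of 0.14, and 15.9% rose and 18.7% fell. Of the 20, Dok2, a docking adaptor, fell by 1.27 ± 0.20 and Plcg1 by 0.67 ± 0.12, and the EAT-2 relative Sh2d1b2 rose by 2.06 ± 0.34. Sh2d1b2 was well above background on 1 of the 2 CD41-KO arrays at 2 months, so its rise rests on a dim signal. In wild type 1 of 20 rose with age and 2 fell (Src at -0.80 ± 0.20 and Dok2 at -0.62 ± 0.18), where 9.37% of all probes rose and 6.13% fell. The riser was Sh2d1a, which encodes SAP. It was well above background on 0 of 3 arrays at 2 months and 1 of 3 at 12 months. The fit called it higher (limma adjusted p = 0.0206), but the call rests on dim signal and no fold is given. For genotype 1 rose (Plcg1, 0.50 ± 0.12) and 1 fell (Sh2d1b2, -1.59 ± 0.34) at 2 months and 0 of 20 passed at 12 months. Of all probes 12.3% and 5.62% passed at these ages. The genotype effect differed between ages for 1 of 20, where 10.3% of all probes passed: Fyn, the Src kinase that SAP recruits (-1.09 ± 0.29, adjusted p = 0.0451). In the CD41 sort, 5 of 8 related receptors and ligands rose and 1 fell, where 37.6% of all probes rose and 21.5% fell. Among those that rose were Crtam at 0.57 ± 0.07, Cd2, a relative that binds CD48 in mice, at 0.37 ± 0.07 and Tnfrsf14 at 0.33 ± 0.07.

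The T and NK cells in which SLAM receptors are best known were followed by 13 markers. Their summed signal was 27.4 to 32.2 times the 75th percentile in CD41-negative and 29.8 to 34.9 times in CD41-positive cells, and 14.6 to 20.3 times over the 4 LT-HSC groups. In the LT-HSC set 9 to 13 of the 13 were well above background on an array. With age in CD41-KO 4 of the 10 tested rose and 1 fell, with Klrb1c at 2.53 ± 0.27, where 15.9% of all probes rose and 18.7% fell. Markers of mast cells, basophils and eosinophils moved with age in wild type, where 6 of 12 rose and 0 fell, against 9.37% and 6.13% of all probes. Their summed signal was 15.5 to 17.5 at 12 months against 8.47 to 9.54 at 2 months, with Prg2 at 3.40 ± 0.11. In CD41-KO 4 of the 12 rose with age and 0 fell, against 15.9% and 18.7% of all probes. There the sum was 8.61 to 9.39 at 12 months against 8.04 to 8.78 at 2 months. At 12 months Prg2 was lower in CD41-KO than in wild type (-2.83 ± 0.11). The part of either list in the members' results was not tested.

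The members' place on the chromosome was compared with their neighbours. Of 38 other gene names with a probe between the outermost members or within 300 kb of them (Pvrl4 and Nectin4 are names of 1 gene), 37 were tested in the CD41 sort, of which 9 rose and 9 fell, with a median of 0.07. Of all probes 37.6% rose and 21.5% fell, with a median of 0.16. The neighbours with the smallest p were Klhdc9 (-1.09 ± 0.08), Copa (-0.87 ± 0.07) and Ufc1 (-0.90 ± 0.07), and they lie at -441.5, 321.6 and -511.6 kb from the Slamf1 probe. Neighbours moved in both directions on either side. With age in CD41-KO 1 of 32 rose and 8 fell (median -0.23), where 15.9% of all probes rose and 18.7% fell (median 0.14). Among the neighbours that fell were Arhgap30 at -2.76 ± 0.27, Vangl2 at -0.73 ± 0.12 and Copa at -0.71 ± 0.13.

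**Figure D4:**
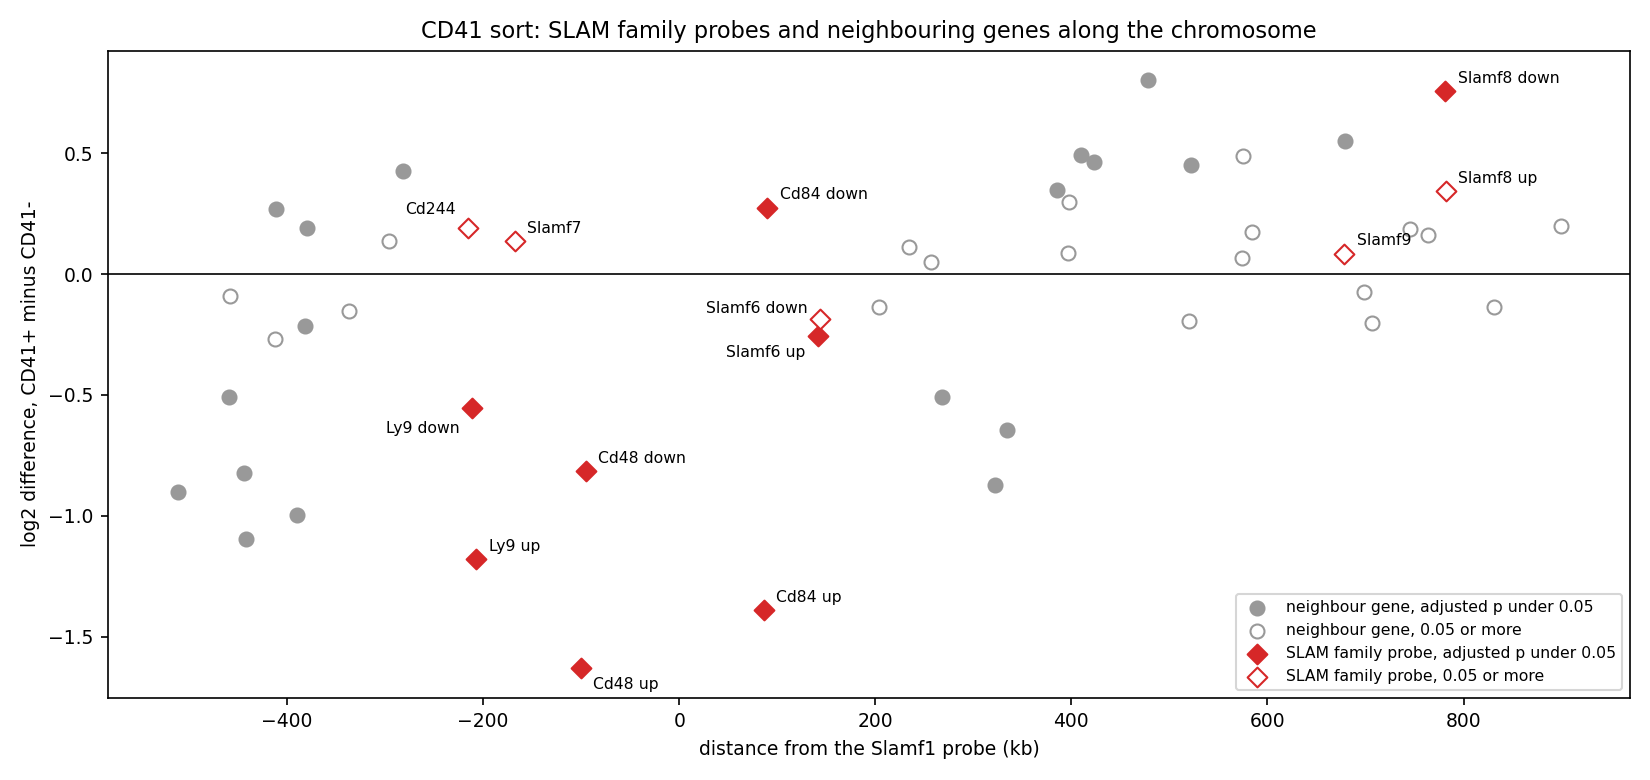
Log2 difference between CD41-positive and CD41-negative cells (vertical axis) against the distance in kb from the Slamf1 probe, for member probes (diamonds, named) and neighbouring genes (circles), filled where the adjusted p was under 0.05. The upstream probes of Cd48, Cd84 and Ly9 are the lowest points, and members and neighbours lie on both sides of 0.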

How the data were processed

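RNA of 1000 sorted cells a sample was hybridised to 17 one-colour Agilent arrays after whole-transcriptome amplification, per the labels. The deposited scanner files give, per the file headers, each spot's intensity, background-subtracted by the scanner software. The authors' deposited value table holds log2 values. It correlated with normexp-corrected, quantile-normalised signals at r of 0.99987 or more, with array medians of 9.46 to 9.48 and 8.07 to 8.08, and served as an alternative. Here, control and outlier spots (104 to 264 of 59305 gene spots an array) were left out, each signal was divided by its array's 75th percentile (451 to 2377) and taken to log2, and spots of a probe were averaged. No spot was saturated. A probe was tested where every array of some group had it well above background, using limma 3.58.1 (R 4.3.3), with Benjamini-Hochberg adjustment over each fit, 1 for the CD41 sort and 1 for the LT-HSC set with all 4 groups. Of all probes 26413 were named through RefSeq accessions and 29268 kept the file's name. Replicate arrays had r of 0.992 to 0.997 (CD41 sort) and 0.974 to 0.983 (LT-HSCs), and the number of arrays limits the precision. In the LT-HSC set replicate numbers coincide with slides and pair the samples: deviations of same-numbered arrays correlated at 0.344 to 0.707 over 15 pairs. Alternatives changed the background correction, scaling, filter, probe choice, variance model, weights, value table, block and arrays. The members and gene lists were chosen with earlier results of these data known. Genes named from a list were the 3 with the smallest p among those called in a comparison. The statistics were tested on simulated data with independent noise and no slide effect, unlike the LT-HSC arrays, and the outcome is not given here.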

Additional observations from a re-analysis of the deposited data

Results flagged for a closer look

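The genotype effect (CD41-KO minus wild type) of the Cd84 upstream probe differed between 12 and 2 months by -1.44 ± 0.23 (limma's interaction term, adjusted p = 0.00679). Over the alternatives with every array the value lay between -1.46 and -1.05 and was called in 9 of 9, and it was called in all 11 fits that left out 1 array. The Cd84 downstream probe was at -0.19 ± 0.21 (adjusted p = 0.650), and whether both probes differ was not tested. The genotype effect of the Slamf8 downstream probe differed by -1.91 ± 0.46 (adjusted p = 0.0300), between -1.93 and -0.26 over the alternatives, called in 5 of 9 and in 3 of 11 fits that left out 1 array. Of the 2-month wild-type arrays 0 of 3 had that probe well above background, and it entered the test only through the 2-month CD41-KO group. The size of this difference thus rests on 2-month wild-type values that were not well above background. The -1.91 is the output of the fit, and no fold is read from it. Both results use the 2-month wild-type arrays, which differ from the others in sex-linked genes, and age, genotype and sex-linked genes cannot be told apart there.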

How the results depend on the processing

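Of 1593 values of single members under the alternatives, 1468 kept their side of the threshold (41 of them, called in neither fit, with the opposite sign), 87 lost the call, 38 gained it and 0 called values changed sign. Counts of members called moved as follows, and the cause was not tested. With 1 probe a gene, where fewer probes are tested, 4 were called in the CD41 sort (8 with all probes), 2 for age in wild type (5), 3 for age in CD41-KO (6) and 1 for the interaction (2). Normexp correction called 1 for genotype at 2 months (3), 2 for age in wild type and 1 for the interaction. In the same order quantile normalization called 1, 3 and 1, and use of the deposited values 1, 2 and 1. The filter on all arrays and the trended robust fit each called 1 for the interaction. Fits of only the 2 groups compared called 3 for age in wild type and 3 in CD41-KO. The replicate block called 2 for genotype at 12 months (0), 9 for age in wild type, 10 in CD41-KO and 4 for the interaction, and 3 for genotype at 2 months as without it. In the CD41 sort same-numbered arrays shared a column of the slide, and their deviations correlated at 0.039 to 0.458 (median 0.417, 3 pairs). Arrays of different number and group correlated at -0.475 to 0.115 (median -0.097, 6 pairs). The block called 11 there, where 37307 of all 53883 probes passed. Leaving out 1 array gave 6 to 9 in the CD41 sort, 1 to 3 for genotype at 2 months (1 without CD41-KO replicate 1), 0 to 0 at 12 months, 3 to 5 for age in wild type, 3 to 7 in CD41-KO (3 without 2-month replicate 2 or 12-month replicate 3) and 1 to 2 for the interaction. Counts over all probes moved by over 1.5 times too. For genotype at 2 months (6186) they were 3955 with normexp, 3986 with 1 probe a gene, 18226 with the block, 1703 with 2 groups and 1471 to 5959 without 1 array. At 12 months (2834) they were 1444, 1746, 14572, 1451 and 833 to 2798, and 8046 with array weights. For age in wild type (7817) they were 4719, 5091, 21035, 4738 and 4450 to 7550, and 60.5% of calls were higher against 49.7% with quantile normalization and 50.1% with the deposited table. For age in CD41-KO (17431) they were 30301 with the block and 7593 to 18205 without 1 array. For the interaction (5169) they were 2647, 3229, 18047 with the block and 1310 to 5074, and in the CD41 sort (31844) 20909 with 1 probe a gene. Dim signal limits Slamf8 in LT-HSCs and Slamf1 in the CD41 sort, which were well above background on only some arrays.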
